A study of Mus musculus with 6 samples.

Results

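The ESCRT machinery (endosomal sorting complexes required for transport) was described here through 32 mouse genes: 3 of ESCRT-0, 8 of ESCRT-I, 3 of ESCRT-II, 11 of ESCRT-III, 3 of the VPS4 module and 4 accessory genes. They were taken by symbol as the known subunits and close accessory factors, a rule that uses no measured value, out of 40808 gene IDs in the count table. All 32 were found, 31 had counts, and these 31 passed the filter on low counts. Chmp4c, an ESCRT-III paralogue of Chmp4b, had 0 counts in all 6 libraries, which allows up to 0.31 to 0.61 CPM per library (CPM, the count divided by the library size with correction for library composition; the limit is 3 counts and covers counting error only).

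The RNA came from splenic leukaemia cells of bone marrow transplanted mice, per the labels, and was read from the 3′ ends of poly(A) RNA (QuantSeq). Of the 6 libraries, 3 were labelled as not receiving Dox (replicates 4, 5 and 6) and 3 as receiving it (replicates 10, 11 and 12). Strain, age, sex, the leukaemia's driver, the gene under control of Dox, its dose and its duration are not stated in the labels, nor is it stated that each library came from a separate mouse, so p-values measure only the spread between these libraries. The title of the series sets the ESCRT pathway, with UVRAG and the ubiquitin ligase ITCH, in the control of NOTCH receptors.

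ESCRT complexes act in sequence on the endosome. ESCRT-0 gathers ubiquitinated membrane proteins such as activated receptors, ESCRT-I and ESCRT-II bend the membrane around them, and ESCRT-III filaments cut the bud off into the lumen, so that the cargo reaches the lysosome. The ATPase VPS4 takes the filaments apart, and the same filaments act in cell division, nuclear envelope closure and virus release.

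Total counts overlapped between groups, at 5541486 to 7729988 without Dox and 6498193 to 8725767 with Dox. Other library-wide properties moved with the groups. Haemoglobin genes took 8.61% to 9.04% of counts without Dox and 14.1% to 15.9% with Dox, Y-linked genes had 545 to 801 counts without Dox and 0 in each library with Dox, and Xist had 193 to 324 and 3347 to 5669 counts. T cell markers were lower with Dox for 9 of 11 genes (summed level 1854 to 1984 CPM without Dox, 210 to 283 CPM with Dox). B cell markers were higher for 10 of 10 genes (33.1 to 39.7 and 1767 to 1896 CPM), and myeloid markers for 7 of 10, with 1 lower (229.96 to 238 and 1906 to 2029 CPM). Stromal and endothelial markers were higher for 5 of 10 and lower for 1 (506 to 551 and 699 to 877 CPM), and erythroid markers higher for 4 of 9 and lower for 2. Of the defining markers, Ly6g was at 0 in the libraries without Dox. Proliferation genes were lower for 6 of 10 (3920 to 4249 and 2777 to 3207 CPM). In bulk RNA, a change in the mix of cells and a change of RNA per cell cannot be told apart, and the part of these shifts in the ESCRT results was not tested. Dox and sex-linked expression cannot be told apart in these libraries.

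The ESCRT genes did not move as a block. Of the 31 tested, 6 were higher with Dox (Vps37b, Ist1, Stam2, Vps37a, Usp8 and Ubap1), 8 were lower (Chmp4b, Vta1, Vps36, Vps28, Hgs, Chmp1b, Chmp2a and Pdcd6ip) and 17 did not pass the threshold (edgeR quasi-likelihood test, adjusted p-value under 0.05 over 14110 genes). That is 45.2% of the members, beside 45.6% of all tested genes. By direction, 19.4% of members and 23.6% of all genes were higher, and 25.8% of members and 22.1% of all genes were lower. An absolute log2 fold change of at least 1 was reached by 11 called members (35.5%, beside 38.6% of all genes). The groups did not overlap in 19 members (61.3%, beside 59.6% of all genes). These shares are near the background, so the number of changes says nothing particular about ESCRT genes; the rest of the account concerns which subunits moved and in which direction. The median log2 fold change of the members was -0.10, beside 0.07 for all genes, and the median absolute change was 0.75, beside 1.05.

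**Figure D1:**
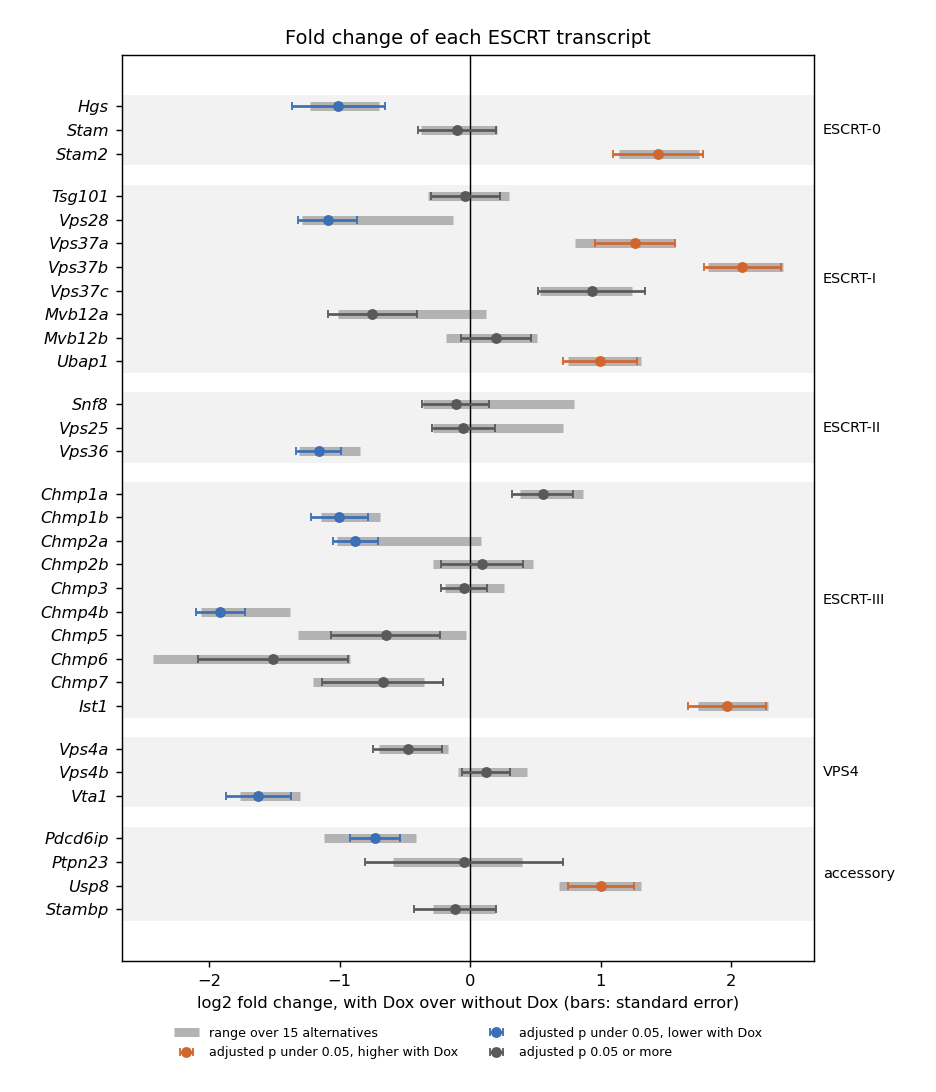
Log2 fold change of the 31 tested ESCRT genes (x axis, with Dox over without Dox), grouped by subcomplex; points with bars are the estimate and its standard error, and grey bands are the range over 15 alternative analyses. Changes run from -1.92 for Chmp4b to 2.09 for Vps37b, and ESCRT-I and ESCRT-III each hold members moving both ways.

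The call and its direction were kept in all 15 alternative analyses by 6 of the 14 called members. Those were Chmp4b, Vta1, Vps36 and Chmp1b, lower with Dox, and Vps37b and Ist1, higher with Dox. The number of higher members went from 6 to 2 without replicate 6 from the group without Dox, where calls over all genes also fell, to 31.8%. The number of lower members rose to 11 without replicate 12 of the group with Dox (47.5% of all genes called) and fell to 5 when a trend with transcript length was removed (42.6%). By library size only, 8 members were higher and 6 lower (46.9% of all genes called). With upper-quartile scaling, 7 were higher and 7 lower (45.8%).

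The start regions of members that passed the threshold are shown as context for the 2 directions. RefSeq promoter windows (GRCm38.p6) were found for 24 of the 32 members. Each line below gives the bases just before the annotated gene, 5′ to 3′ on the gene's strand, with capitals for any match, on either strand, to CACGTG (E-box), TGGGAA (RBPJ core, the DNA-binding partner of NOTCH), CCAAT or GGGCGG (GC box). Chmp4b lies at chr2:154656926-154657025 (+), Vps36 at chr8:22192733-22192832 (+), Chmp2a at chr7:13034778-13034877 (-), Pdcd6ip at chr9:113708280-113708359 (-) and Vta1 at chr10:14705543-14705589 (-), all lower with Dox. Ist1 lies at chr8:109693298-109693394 (-), Stam2 at chr2:52742150-52742249 (-) and Ubap1 at chr4:41348896-41348995 (+), all higher with Dox.
Chmp4b: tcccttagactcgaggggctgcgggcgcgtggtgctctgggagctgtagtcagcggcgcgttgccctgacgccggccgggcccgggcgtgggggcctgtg
Vps36: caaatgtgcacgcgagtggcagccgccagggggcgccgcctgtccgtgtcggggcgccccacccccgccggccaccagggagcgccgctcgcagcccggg
Chmp2a: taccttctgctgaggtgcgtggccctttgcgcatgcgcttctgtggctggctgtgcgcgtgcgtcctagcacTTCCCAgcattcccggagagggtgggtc
Pdcd6ip: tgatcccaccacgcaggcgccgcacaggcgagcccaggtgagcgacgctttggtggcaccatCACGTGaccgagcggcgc
Vta1: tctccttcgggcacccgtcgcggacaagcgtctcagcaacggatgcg
Ist1: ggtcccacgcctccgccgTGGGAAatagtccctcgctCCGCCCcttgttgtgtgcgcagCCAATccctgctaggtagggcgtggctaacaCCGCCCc
Stam2: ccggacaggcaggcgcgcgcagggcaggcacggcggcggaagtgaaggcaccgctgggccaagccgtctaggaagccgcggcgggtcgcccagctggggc
Ubap1: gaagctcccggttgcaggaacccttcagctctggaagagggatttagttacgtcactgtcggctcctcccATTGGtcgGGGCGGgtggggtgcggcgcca

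Not shown among called members with a window are Hgs, lower with Dox, whose bases lie largely within the neighbouring gene Arl16, and Usp8, higher, whose bases lie within its own annotated gene. The Hgs window held both CCAAT and the GC box, and that of Usp8 the GC box.

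Within the 250 bases before the start, the E-box was found in 1 of 24 members, Pdcd6ip, beside 6.05% of 27025 windows of the same length. The RBPJ core was found in 6 members (25%, beside 21.5% of all windows): Vps36 and Chmp2a, lower with Dox, Ist1, higher, and Vps25, Chmp3 and Ptpn23, which did not pass the threshold. CCAAT was found in 6 members (25%, beside 34.5%) and the GC box in 11 (45.8%, beside 32.9%). Both CCAAT and TGGGAA can share bases when they overlap. These matches are descriptions of letters and were not tested.

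Gene positions in brackets are in GRCm38.p6. Levels in the following paragraphs are normalized CPM, in the order of replicates 4, 5 and 6 without Dox and 10, 11 and 12 with Dox. The 3′ libraries give about 1 fragment per transcript, so no scaling by length was made, and genes are compared between groups, not with each other.

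**Figure D2:**
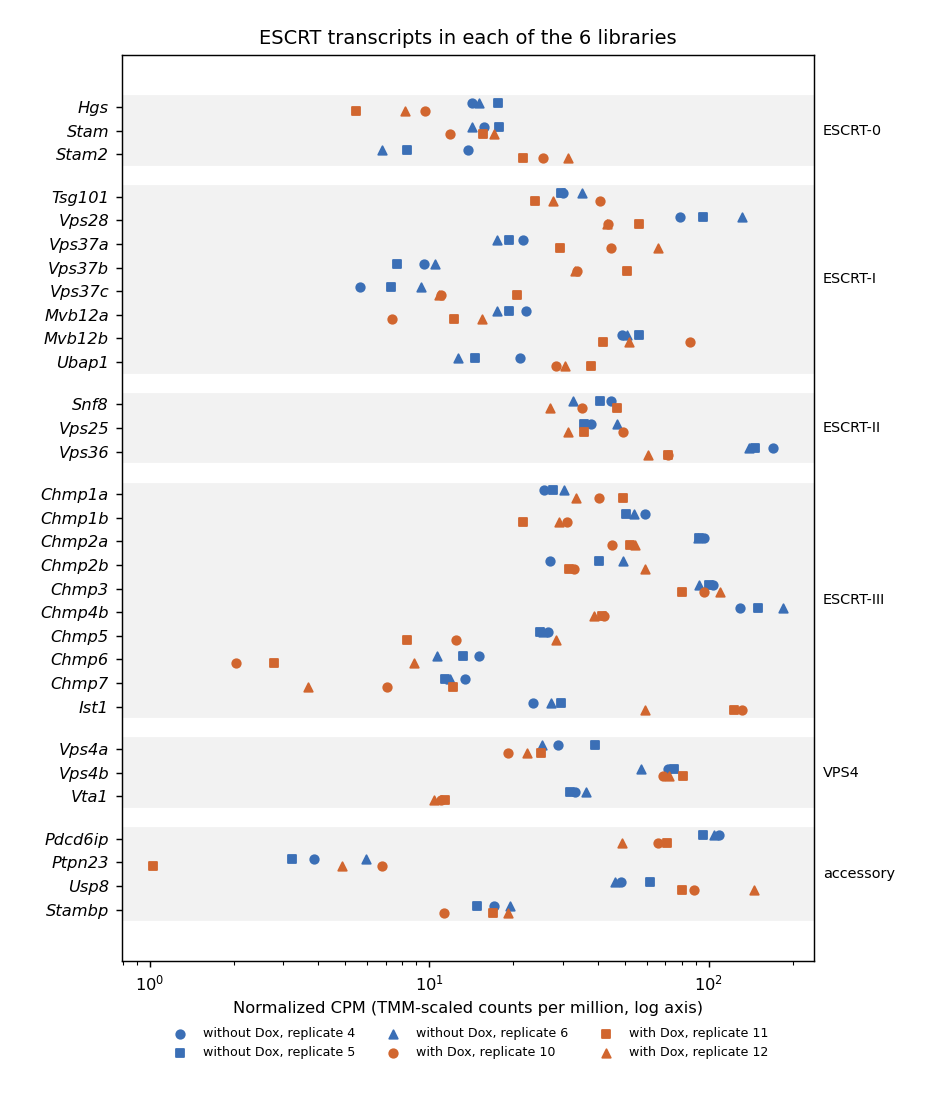
Normalized CPM (x axis, log scale) of the 31 ESCRT genes with counts, grouped by subcomplex, with 1 point per library; blue is without Dox, orange with Dox, and marker shapes tell replicates apart. Chmp4b, Vps36 and Vta1 separate to the left with Dox, Vps37b and Ist1 to the right, and Chmp5, Chmp6, Chmp7 and Ptpn23 scatter widely with Dox.

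In ESCRT-0, Hgs was lower with Dox and Stam2 higher, while Stam did not pass the threshold. Hgs (chr11:120467605-120483984) encodes HRS, the ubiquitin-binding and lipid-binding subunit that starts sorting. Hgs was at 14.2, 17.6 and 15.1 CPM without Dox and 9.66, 5.45 and 8.17 CPM with Dox. Every library with Dox was below every library without it, and the fall was 1.01 on the log2 scale (SE 0.36, with adjusted p = 0.042 by edgeR). That call was lost in 9 of 15 alternatives, in which adjusted p-values reached 0.145, among them those without replicate 4 (0.0938), 5 (0.145) or 6 (0.0782) from the group without Dox and without replicate 11 with Dox (0.0739). Stam2 (chr2:52692206-52742149), one of a pair of genes for the STAM adaptor that binds ubiquitin beside HRS, was at 13.7, 8.31 and 6.78 CPM without Dox and 25.6, 21.6 and 31.4 CPM with Dox. The groups did not overlap, and the log2 fold change was 1.44 ± 0.35 (SE, with adjusted p = 0.00712 by edgeR). Its adjusted p-value was 0.0546 without replicate 5 and 0.0503 without replicate 6 from the group without Dox, the upper end of a range from 0.00153 to 0.0546. The other gene of the pair, Stam, was at 15.7, 17.8 and 14.2 CPM without Dox and 11.8, 15.5 and 17.0 CPM with Dox, and these values overlapped (log2 fold change -0.10 ± 0.30 (SE), with adjusted p = 0.80). Of the ESCRT-0 counts, Stam2 took 18.8% to 31.5% without Dox and 50.7% to 55.5% with Dox, while Hgs took 32.5% to 41.8% and 12.8% to 20.5%.

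ESCRT-I is built of TSG101, VPS28, 1 of several VPS37 proteins and 1 MVB12 or UBAP1 subunit. Vps37a, Vps37b and Ubap1 were higher with Dox, Vps28 was lower, and Tsg101, the subunit that binds ubiquitin and viral late domains, did not pass the threshold. Tsg101 was at 30.1, 29.6 and 35.3 CPM without Dox and 41.0, 23.9 and 27.8 CPM with Dox, with overlapping groups (log2 fold change -0.04 ± 0.26 (SE), with adjusted p = 0.918 by edgeR). Vps28 (chr15:76622086-76626084), which joins ESCRT-I to ESCRT-II, was at 78.8, 95.7 and 131 CPM without Dox and 43.7, 56.2 and 43.1 CPM with Dox. The groups did not overlap, and Vps28 fell by 1.09 on the log2 scale (SE 0.23, with adjusted p = 0.00344 by edgeR). With the length trend removed the value was -0.13 (adjusted p = 0.661, over a range of 2.77e-06 to 0.661).

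All 3 VPS37 genes tested had higher means with Dox, and 2 passed the threshold. Vps37b (chr5:124004641-124032260) was at 9.55, 7.70 and 10.5 CPM without Dox and 33.8, 51.2 and 33.2 CPM with Dox. Its lowest library with Dox stood above its highest without Dox, and the log2 fold change was 2.09 ± 0.29 (SE, with adjusted p = 0.000317 by edgeR), or 4.24-fold. Vps37a (chr8:40511742-40551134) was at 21.6, 19.3 and 17.5 CPM without Dox and 44.8, 29.4 and 66.0 CPM with Dox (log2 fold change 1.26 ± 0.31 (SE), with adjusted p = 0.00772). Its groups did not overlap; without replicate 6 from the group without Dox the adjusted p-value was 0.0549, the upper end of a range from 0.00112. Vps37c was at 5.67, 7.30 and 9.32 CPM without Dox and 11, 20.6 and 10.8 CPM with Dox, groups that did not overlap but missed the threshold (log2 fold change 0.93 ± 0.41 (SE), with adjusted p = 0.0907). Vps37c passed by library size only (1.24, adjusted p = 0.0338) and with 10 counts required in every library (1.05, adjusted p = 0.0463), and was at 0.53 without replicate 11 with Dox (adjusted p = 0.314, in a range of 0.0338 to 0.314). Of the counts of these 3 genes, Vps37b took 22.5% to 28.2% without Dox and 30.2% to 50.6% with Dox.

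The value of Vps37b has a limit from the annotation. In GENCODE M21 (GRCm38) the last 500 bases of its transcript lie entirely within exons of Hip1r on the opposite strand. Of these bases, 180 also lie within exons of Gm37939, likewise on the opposite strand, to which no counts could be matched. Hip1r, a clathrin and actin adaptor, had counts of 61, 61 and 65 without Dox and of 335, 233 and 375 with Dox, while those of Vps37b were 64, 38 and 62 without and 248, 497 and 252 with it. Both genes were higher with Dox (Hip1r log2 fold change 1.87 ± 0.33 (SE), with adjusted p = 0.00124 by edgeR). Whether counting used the strand is not stated in the sources used here, so reads of the 2 genes cannot be told apart. Vps25 shares its last 500 bases with Ramp2 on the same strand (154 counts in all libraries, beside 1658 for Vps25). Near copies of the last 500 bases were found for Chmp2a (Gm8185, 95.9% identity over 439 bases) and Snf8 (Gm8712, 97.4% over 195 bases), so reads of these genes may be split or dropped depending on the counting.

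Of the other ESCRT-I genes, Ubap1 (chr4:41348996-41389766), the subunit of an ESCRT-I form that sorts ubiquitinated receptors, was at 21.2, 14.6 and 12.7 CPM without Dox and 28.3, 37.8 and 30.7 CPM with Dox. The groups did not overlap (log2 fold change 0.99 ± 0.29 (SE), with adjusted p = 0.0171 by edgeR). The adjusted p-value was 0.114 without replicate 5 and 0.112 without replicate 6 from the group without Dox, and 0.0515 without replicate 11 with Dox, in a range of 0.00349 to 0.114. Mvb12a was at 22.2, 19.3 and 17.5 CPM without Dox and 7.35, 12.2 and 15.4 CPM with Dox, not past the threshold (log2 fold change -0.75 ± 0.34 (SE), with adjusted p = 0.101). Without replicate 12 with Dox it was -1.01 (adjusted p = 0.032, in a range of 0.032 to 0.796). Mvb12b was at 49.1, 56.3 and 51.0 CPM without Dox and 86.0, 41.7 and 51.9 CPM with Dox; replicate 10 alone stood above the rest, and the groups overlapped (log2 fold change 0.20 ± 0.27 (SE), with adjusted p = 0.576).

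In ESCRT-II the change lay in Vps36, whose protein binds ubiquitin and endosomal lipid and anchors the complex. Vps36 (chr8:22192833-22220953) was at 170.3, 146 and 139.7 CPM without Dox and 71.3, 71.5 and 60.8 CPM with Dox. The lowest library without Dox stood well above the highest with Dox, and Vps36 fell by 1.16 on the log2 scale (SE 0.17, with adjusted p = 0.000405 by edgeR). Snf8 was at 32.7 to 44.6 CPM without Dox and 27.1 to 46.8 CPM with Dox, and Vps25 at 35.7 to 47.1 and 31.5 to 49.4 CPM. Both encode the core of the complex that contacts ESCRT-III, and in both the groups overlapped (adjusted p = 0.744 and 0.876 by edgeR). With the length trend removed, both passed the threshold in the upward direction (Snf8 0.79, adjusted p = 0.0254; Vps25 0.71, adjusted p = 0.0347; ranges over the alternatives 0.0254 to 0.987 and 0.0347 to 0.981). Of the ESCRT-II counts, Vps36 took 63.6% to 67.3% without Dox and 45.8% to 50.9% with Dox.

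ESCRT-III held the deepest fall and the second largest rise of the machinery. Chmp4b (chr2:154657026-154694783), the gene of the main filament-forming subunit, was at 129.5, 149.8 and 184 CPM without Dox and 42.3, 41.6 and 38.9 CPM with Dox. The 3 libraries with Dox lay close together and far below the rest. Chmp4b fell by 1.92 on the log2 scale (SE 0.19, with adjusted p = 3.53e-05 by edgeR), 3.77-fold. With the length trend removed it fell by 1.38, and its adjusted p-value stayed at or below 0.00038 in the 15 alternatives. As Chmp4c had no counts, Chmp4b gave all counts of these CHMP4 genes. Ist1 (chr8:109671321-109693297), whose protein binds CHMP1 subunits and draws in VPS4 and spastin, was at 23.6, 29.6 and 27.3 CPM without Dox and 132, 124 and 59.2 CPM with Dox. All libraries with Dox were above those without it, replicate 12 the least so, and the log2 fold change was 1.97 ± 0.30 (SE, with adjusted p = 0.000505 by edgeR), 3.91-fold. Chmp4b took 24.9% to 31.9% of ESCRT-III counts without Dox and 9.15% to 9.83% with Dox, and Ist1 took 4.54% to 5.48% and 13.9% to 29.8%.

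The CHMP2 and CHMP1 genes each had 1 member lower with Dox and 1 that did not pass the threshold. Chmp2a (chr7:13032006-13034777), which with CHMP3 narrows and closes the filament and recruits VPS4, was at 96.2, 92.2 and 91.2 CPM without Dox and 45.2, 52.1 and 54.7 CPM with Dox. Chmp2a fell by 0.88 on the log2 scale (SE 0.17, with adjusted p = 0.00234 by edgeR) with no overlap. With the length trend removed it was 0.081 (adjusted p = 0.727, over a range of 3.44e-05 to 0.727). Chmp2b was at 27.0, 40.5 and 49.2 CPM without Dox and 33.1, 31.6 and 59.3 CPM with Dox, with overlapping groups (log2 fold change 0.09 ± 0.31 (SE), with adjusted p = 0.84). Chmp1b, which binds VPS4 and spastin, was at 58.9, 50.7 and 54.2 CPM without Dox and 31.2, 21.6 and 29.1 CPM with Dox. The groups did not overlap, and Chmp1b fell by 1.0 on the log2 scale (SE 0.22, with adjusted p = 0.0044). Chmp1a was at 25.8, 27.8 and 30.3 CPM without Dox and 40.6, 49.2 and 33.5 CPM with Dox, all above, without passing the threshold (log2 fold change 0.56 ± 0.23 (SE), with adjusted p = 0.0752). It passed in 5 of 15 alternatives, among them without replicate 12 with Dox (0.67, adjusted p = 0.0242, in a range of 0.0139 to 0.313).

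The remaining ESCRT-III genes did not pass the threshold. Chmp3, the partner of CHMP2A, was at 92.1 to 103 CPM without Dox and 79.97 to 109 CPM with Dox, with overlap (adjusted p = 0.84 by edgeR). Chmp6, which starts the filament on ESCRT-II, was at 15.1, 13.2 and 10.7 CPM without Dox and 2.04, 2.78 and 8.83 CPM with Dox. Its groups did not overlap, but replicate 12 stood apart from replicates 10 and 11 (log2 fold change -1.51 ± 0.57 (SE), with adjusted p = 0.0546 by edgeR). Chmp5, a regulator of VTA1 and VPS4, showed the same replicate apart: 24.9 to 26.6 CPM without Dox, and 12.5, 8.34 and 28.5 CPM with Dox (log2 fold change -0.65 ± 0.42 (SE), with adjusted p = 0.234). Chmp6 passed the threshold, lower with Dox, in 6 of 15 alternatives, among them DESeq2 (adjusted p = 0.0279) and limma-voom (0.0164). Without replicate 12, Chmp6 was -2.43 (adjusted p = 0.0020, in a range of 0.0020 to 0.234) and Chmp5 was -1.32 (adjusted p = 0.00488, in a range of 0.00488 to 0.956). Chmp7, which acts at the nuclear envelope, was at 11.3 to 13.4 CPM without Dox and at 7.08, 12.1 and 3.69 CPM with Dox (log2 fold change -0.67 ± 0.47 (SE), with adjusted p = 0.268); it was lowest in replicate 12.

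In the VPS4 module the cofactor moved and the ATPases did not pass the threshold. Vta1 (chr10:14654760-14705542), whose protein (also called LIP5) stimulates VPS4, was at 33.1, 32.0 and 36.3 CPM without Dox and 11, 11.4 and 10.4 CPM with Dox. Libraries of each group lay close together, and Vta1 fell by 1.62 on the log2 scale (SE 0.25, with adjusted p = 0.000543 by edgeR), 3.08-fold. Vps4a was at 28.8, 39.3 and 25.3 CPM without Dox and 19.2, 25.2 and 22.4 CPM with Dox, groups that touched without overlap (log2 fold change -0.48 ± 0.26 (SE), with adjusted p = 0.167). Vps4b was at 71.5, 75.2 and 57.5 CPM without Dox and 68.7, 80.9 and 72.0 CPM with Dox, with overlap (log2 fold change 0.12 ± 0.18 (SE), with adjusted p = 0.63). Vta1 took 21.9% to 30.5% of the module's counts without Dox and 9.72% to 11.1% with Dox.

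Among accessory genes, a deubiquitinase rose and the adaptor ALIX fell. Usp8 (chr2:126707201-126759314), the deubiquitinase that binds STAM and removes ubiquitin from cargo and from ESCRT-0, was at 48.3, 61.8 and 46.3 CPM without Dox and 88.5, 80.3 and 145 CPM with Dox. The groups did not overlap (log2 fold change 1.0 ± 0.25 (SE), with adjusted p = 0.00903 by edgeR). Its adjusted p-value was 0.0558 without replicate 4 and 0.065 without replicate 6 from the group without Dox, in a range of 0.00149 to 0.065. Pdcd6ip (chr9:113651744-113708279) encodes ALIX, which links cargo and TSG101 to CHMP4 and was at 109, 95.05 and 104 CPM without Dox and 65.7, 71.0 and 49.0 CPM with Dox. No library overlapped, and Pdcd6ip fell by 0.73 on the log2 scale (SE 0.19, with adjusted p = 0.0116). The adjusted p-value was 0.0512 without replicate 4 from the group without Dox and 0.116 by library size only, in a range of 0.00121 to 0.116. Stambp, the gene of the other ESCRT deubiquitinase AMSH, was at 14.8 to 19.5 CPM without Dox and 11.3 to 19.1 CPM with Dox (adjusted p = 0.789). Ptpn23, the gene of the BRO1-domain protein HD-PTP, had few reads, at 16 to 35 counts without Dox and 50, 10 and 37 with Dox (adjusted p = 0.966).

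The summed level of the 32 genes depended on the scaling. It was 1366 to 1412 CPM without Dox and 1179 to 1212 CPM with Dox after TMM scaling (trimmed mean of M-values), 13.5% lower with Dox and without overlap. Scaled by library size alone it was 1184 to 1309 CPM without Dox and 1290 to 1370 CPM with Dox, 1.07-fold higher and with overlap. No direction of the machinery as a whole can be given from these libraries. The composition of the ESCRT counts does not depend on the scaling of libraries and is given next. Shares were not computed with the length trend removed. That step moved Vps28 and Chmp2a by 0.96 on the log2 scale and Vps37a by -0.46, so shares can depend on it.

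**Figure D3:**
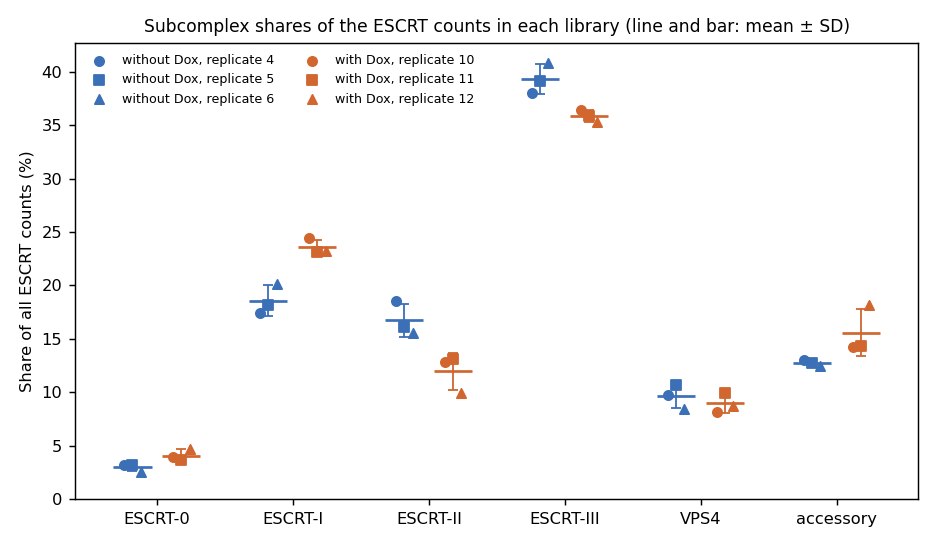
Share of all ESCRT counts taken by each subcomplex (y axis, percent), 1 point per library, with the mean and SD of 3 libraries per group; blue is without Dox, orange with Dox. ESCRT-I shares sit at 23.1% to 24.4% with Dox, above 17.4% to 20.2% without, and ESCRT-II shares at 9.93% to 13.1%, below 15.5% to 18.5%. The length trend was not removed from these shares.

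ESCRT-I took 17.4%, 18.1% and 20.2% of the ESCRT counts without Dox and 24.4%, 23.1% and 23.2% with Dox. Its share was larger in every library with Dox, and stayed so with Vps37b left out (16.9% to 19.6% and 19.7% to 22.3%). ESCRT-II took 18.5%, 16.1% and 15.5% without Dox and 12.9%, 13.1% and 9.93% with Dox, a smaller share in every library with Dox. That difference lay in Vps36: with it left out, the shares were 6.21% to 6.92% and 5.14% to 7.45%, and overlapped. ESCRT-III went from 38.0% to 40.8% without Dox to 35.3% to 36.5% with Dox, and without Ist1 from 37.0% to 39.7% to 28.3% to 32.0%. Chmp4b alone took a mean of 11.1% of all ESCRT counts without Dox and 3.42% with Dox. That fall was larger than the fall of the whole ESCRT-III share (mean 39.4% without Dox and 35.9% with Dox). Shares without Chmp4b were not computed, so the lower share does not show a fall across the other ESCRT-III genes. ESCRT-0 took 2.56% to 3.19% without Dox and 3.61% to 4.70% with Dox, but 2.09% to 2.59% and 1.81% to 2.15% without Stam2, which overlapped. The accessory genes took 12.5% to 13% and 14.2% to 18.1%; without Usp8 the order turned, to 8.60% to 9.83% and 6.90% to 8.10%. The VPS4 module took 8.43% to 10.6% and 8.16% to 9.97%, with overlap. Genes left out here were chosen as the member with the largest change of each subcomplex, and no test was made of these shares.

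Related genes that can fill the same place were compared by the share of the first gene in the counts of both. Of 9 pairs with counts, 6 had shares that did not overlap between groups. Levels of single genes, a different measure, did not overlap in 59.6% of all tested genes, and no background was computed for pairs. The VPS37 genes enter several pairs, so the pairs are not independent. The 6 each had an exact two-sided permutation p of 0.1 (0.15 after Benjamini-Hochberg adjustment over 9 pairs). A p of 0.1 is the smallest that 3 against 3 libraries allow. None could therefore pass 0.05. The largest difference was in Stam/Stam2: Stam took 53.3%, 68.2% and 67.7% of the pair without Dox and 31.6%, 41.8% and 35.1% with Dox. Chmp1a went the other way against Chmp1b, with 30.5%, 35.4% and 35.9% without Dox and 56.5%, 69.5% and 53.5% with Dox.

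The other 4 pairs whose shares separated differed by less. Vps37b took 51.4% to 62.7% of its pair with Vps37c without Dox and 71.3% to 75.4% with Dox. Chmp2a took 65.0% to 78.1% of its pair with Chmp2b without Dox and 48.0% to 62.2% with Dox. Vps4a took 28.7% to 34.3% of the VPS4 ATPase counts without Dox and 21.8% to 23.8% with Dox. Mvb12a took 25.5% to 31.2% of its pair with Mvb12b without Dox and 22.7%, 22.9% and, in replicate 10, 7.87% with Dox. With the length trend removed, the direction of this pair turned, to log2 fold changes of 0.12 for Mvb12a and -0.08 for Mvb12b. Those of Chmp2a and Chmp2b were then 0.081 and 0.48, closer together than the -0.88 and 0.09 without that step. Vps4a and Vps4b also drew closer, from -0.48 and 0.12 to -0.25 and -0.09. Vps37b and Vps37c stayed about as far apart, at 2.22 and 1.04 after 2.09 and 0.93. Shares overlapped for Vps37a with Vps37b (exact two-sided permutation p = 0.2), Vps37a with Vps37c (p = 0.7) and the BRO1-domain pair Pdcd6ip with Ptpn23 (p = 0.4).

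**Figure D4:**
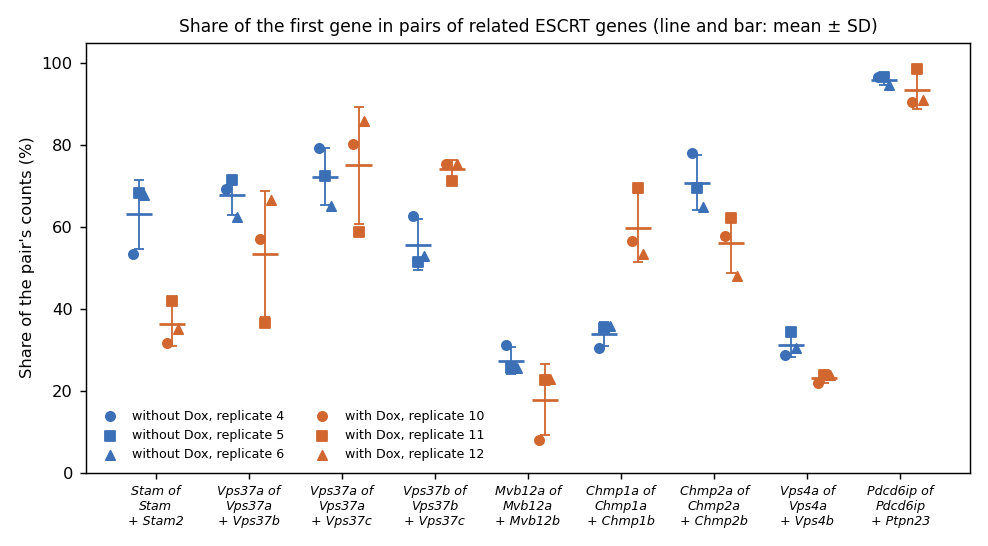
Share of the first-named gene in the counts of each pair of related ESCRT genes (y axis, percent), 1 point per library, with the mean and SD of 3 libraries per group. Stam falls from 53.3% to 68.2% without Dox to 31.6% to 41.8% with Dox, and Chmp1a moves from 30.5% to 35.9% up to 53.5% to 69.5%.

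Fold changes across all genes followed transcript length, and this touched the ESCRT results. Among tested genes with a known length, the median log2 fold change was -0.61 in the shortest of 3 equal classes (median length 1573 bases), -0.04 in the middle class (3083 bases) and 0.44 in the longest (5518 bases). The ESCRT transcripts ran from 941 bases (Vps28) to 6379 bases (Vps37a) among those tested. Removing the trend within each library moved 8 short members up by more than 0.5 on the log2 scale. It ended the calls of Vps28 (941 bases), Chmp2a (949 bases) and Hgs (2908 bases, -0.93, adjusted p = 0.0593). Snf8 (1004 bases), Vps25 (1220 bases) and Chmp1a (2140 bases) passed instead, which made 9 members higher and 5 lower, 45.2% of members beside 42.6% of all genes called in that fit. The source of the trend was not tested. Chmp4b (1616 bases), Vta1 (1974 bases), Vps36 (3574 bases), Ist1 (2304 bases), Vps37b (2522 bases) and Chmp1b (2524 bases) kept their calls, as did Stam2, Vps37a, Ubap1, Usp8 and Pdcd6ip.

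**Figure D5:**
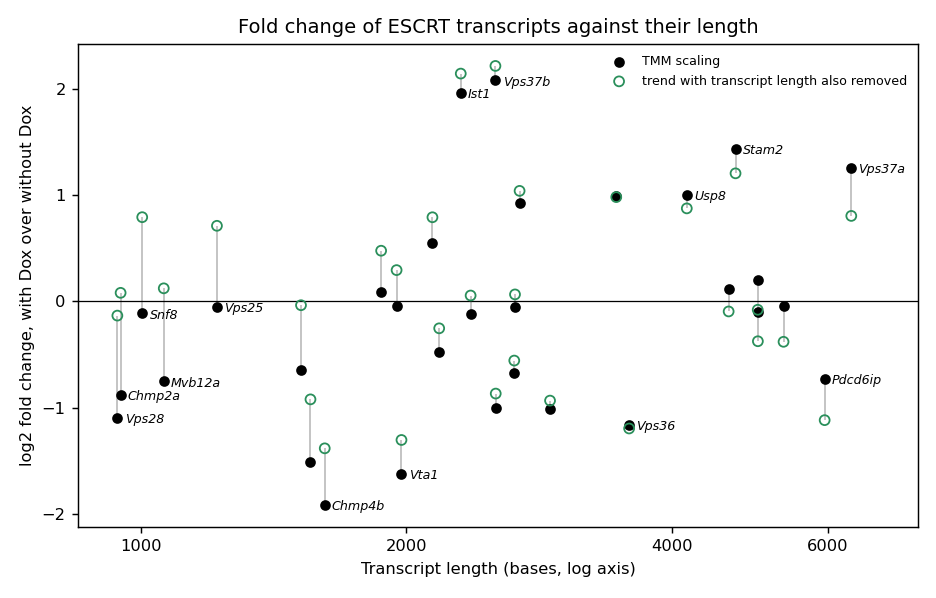
Log2 fold change with Dox over without Dox (y axis) of the 31 tested ESCRT genes against transcript length in bases (x axis, log scale); filled points are after TMM scaling alone, open circles after the trend with length was also removed. Vps28 and Chmp2a, the shortest, move from -1.09 and -0.88 to -0.13 and 0.081, while Chmp4b moves from -1.92 to -1.38 and Ist1 from 1.97 to 2.15.

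Spread between libraries was larger with Dox. The median coefficient of variation of the members was 12.3% without Dox and 25.6% with Dox, and it was higher with Dox for 23 of 31 (74.2%, beside 72.3% of tested genes in the members' range of mean CPM). Among the 9773 tested genes in the members' range of mean CPM it was 17.0% and 31.2%. In that range 49.3% of genes were called and the median absolute log2 fold change was 0.98. A coefficient of at least 50% with Dox was found in 4 members (Chmp5, Chmp6, Chmp7 and Ptpn23), so a missed threshold for these does not show that they were alike in the 2 groups.

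Beyond the subunits, 27 genes that bind, regulate or parallel the ESCRT machinery were listed; 26 were found and 24 tested. Of these, 4 were higher with Dox and 4 lower, beside the same 23.6% and 22.1% of all genes, and their median log2 fold change was 0.08. Levels were separate in 14 of these 24 genes, beside 59.6% of all genes. Pdcd6, a calcium-binding partner of ALIX and TSG101, was at 63.7, 53.7 and 67.1 CPM without Dox and 9.25, 18.4 and 14.9 CPM with Dox, and fell by 2.11 on the log2 scale (SE 0.28, with adjusted p = 0.000227 by edgeR). It fell together with Pdcd6ip, its binding partner. Cep55, which brings TSG101 and ALIX to the midbody of dividing cells, was at 28.5, 30.2 and 33.6 CPM without Dox and 8.30, 4.22 and 9.75 CPM with Dox (log2 fold change -2.06 ± 0.35 (SE), with adjusted p = 0.00106). The lower proliferation markers above moved with it, and their part was not tested.

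Higher among these genes were an arrestin-like TSG101 partner and a Golgi sorting adaptor. Arrdc1, which recruits TSG101 to the plasma membrane for vesicle budding, was at 9.25, 4.86 and 2.37 CPM without Dox and 23.1, 20.9 and 20.6 CPM with Dox (log2 fold change 1.96 ± 0.46 (SE), with adjusted p = 0.0064 by edgeR). Gga2, an adaptor for lysosomal enzymes, was at 17.5, 20.5 and 22.2 CPM without Dox and 93.2, 74.4 and 48.0 CPM with Dox (log2 fold change 1.84 ± 0.27 (SE), with adjusted p = 0.000427). Lemd2, the nuclear envelope partner of CHMP7, was at 8.80, 8.11 and 8.14 CPM without Dox and 33.2, 19.9 and 11.9 CPM with Dox (log2 fold change 1.37 ± 0.40 (SE), with adjusted p = 0.0187). Stambpl1, the paralogue of Stambp, was at 38.1, 35.1 and 27.0 CPM without Dox and 14.4, 9.26 and 21.2 CPM with Dox, and fell by 1.16 on the log2 scale (SE 0.34, with adjusted p = 0.0176).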

How the data were processed

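A single table was used, in which the authors deposited raw read counts for each Entrez gene ID (columns are libraries); 0 columns of per-sample values were left unused. STAR, featureCounts and GRCm38 are named in the submitters' processing notes, without versions; strand setting, annotation, multi-mapping and molecular identifiers are not given in the sources used here. Columns were matched to samples by title. Symbols came from RefSeq GRCm38.p6.

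Genes were filtered (filterByExpr, minimum count 10, minimum total 15), scaled with TMM factors and tested over all genes with edgeR 4.0.16 in R 4.3.3 (quasi-likelihood F-test, 6 libraries, no covariate), with Benjamini-Hochberg adjustment at 0.05. Standard errors are the absolute log2 fold change divided by the square root of F. Normalized CPM are counts over the scaled library size. The procedure was also run on simulated data. That run held no length trend and few changed genes, and it is not used as support for the calls here. Near copies and overlaps were searched for in the last 500 bases of each member's longest RefSeq-linked GENCODE M21 transcript. Lengths came from the same transcripts.

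Alternatives were RLE, upper-quartile and library-size scaling, 2 other filters, DESeq2 1.42.0, limma-voom (limma 3.58.1), scaling without the genes of haemoglobins, immunoglobulins, T cell receptors and mitochondria, removing the length trend, a threshold of 0.01, and leaving out each library.

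The rule for the members uses no measured value, but the members, lists and tests were chosen with earlier results of these data known. Values per library are given for members past the threshold with an absolute log2 fold change of at least 1 and for pairs whose shares do not overlap, and for the 6 called associated genes with the largest change; values of other members, and the neighbours Hip1r and Ramp2, were added after they were seen.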

Additional observations from a re-analysis of the deposited data

How the results depend on the processing

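No paired analysis was possible because replicates 4, 5 and 6 and replicates 10, 11 and 12 have no number in common. Of the 14 called members, 6 kept call and direction in all 15 alternatives and 8 lost the call at least once; Chmp2a alone among them changed sign. Scaling by library size alone shifted the all-gene median by 0.31 (log2). The median of the members was -0.0068 with upper-quartile scaling, 0.21 by library size only, -0.25 with no filter on low counts, 0.015 under the filter of 10 counts in every library and 0.056 with the length trend removed. Members lower with Dox were 5 with the length trend removed. Associated genes were 7 higher and 2 lower by library size only, 2 lower with the length trend removed, and 2 higher and 2 lower at an adjusted p-value under 0.01, which can only lower a count. With libraries left out in turn, members higher ran from 2 to 7, the members' median from -0.29 to -0.16, and associated genes from 2 to 5 higher and 2 to 4 lower; the difference in the Vps37a share of its pair with Vps37c ran from -2.77 to 10.8 percentage points.

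The changes of sign concern Chmp2a and 11 members that did not pass the threshold as reported. By library size only, log2 fold changes were 0.21 for Stam, 0.27 for Tsg101, 0.21 for Snf8, 0.26 for Vps25, 0.26 for Chmp3, 0.26 for Ptpn23 and 0.19 for Stambp. With at least 10 counts in every library they were 0.015 (Stam), 0.079 (Tsg101), 0.0061 (Snf8), 0.065 (Vps25), 0.069 (Chmp3), 0.059 (Ptpn23) and 0.0043 (Stambp). With upper-quartile scaling they were 0.061 (Tsg101), 0.046 (Vps25), 0.048 (Chmp3) and 0.053 (Ptpn23), and without a low-count filter -0.043 (Chmp2b) and -0.027 (Vps4b). With the length trend removed they were 0.30 (Tsg101), 0.12 (Mvb12a), -0.078 (Mvb12b), 0.79 (Snf8), 0.71 (Vps25), 0.081 (Chmp2a), 0.067 (Chmp3), -0.094 (Vps4b) and 0.056 (Stambp). With libraries left out, ranges that cross 0 were -0.27 to 0.0066 (Stam), -0.32 to 0.095 (Tsg101), -0.18 to 0.38 (Mvb12b), -0.36 to 0.042 (Snf8), -0.29 to 0.059 (Vps25), -0.28 to 0.22 (Chmp2b), -0.19 to 0.037 (Chmp3), -0.079 to 0.14 (Vps4b), -0.59 to 0.40 (Ptpn23) and -0.29 to 0.050 (Stambp). The cause of these changes was not tested.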
